A study of Homo sapiens with 12 samples.

Results

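Transcripts of 9 secreted factors were followed: the insulin-like growth factor (IGF) binding proteins IGFBP2, IGFBP3, IGFBP4, IGFBP5 and IGFBP7, the tissue inhibitors of metalloproteinases TIMP1, TIMP2 and TIMP3, and PLAU, the plasminogen activator urokinase. They were chosen by gene name and made up 9 of the 38551 genes in the count table, and all 9 were present in it. In this experiment, HEL cells, a human erythroleukemia line with mutated JAK2 that here also expressed Cas9, received lentiviral guide RNAs against luciferase (control) or against KDM4C, a histone demethylase (sg2 or sg3). Puromycin selection, at 1.5 µg/mL for 11 days, was common to all groups, all 12 libraries carried the name of the vehicle dimethyl sulfoxide in the count table, and each group had 4 libraries. Cells were a selected pool and no clone is named, so each group may mix edited and unedited alleles. The sources place the division into replicates after selection and mention a single transduction step, so the p-values reflect the spread among these libraries alone, and that spread may be a technical one.

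IGF-binding proteins carry IGF1 and IGF2 outside the cell and limit or prolong their access to the receptor IGF1R, while IGFBP7 binds IGFs only weakly. TIMPs block matrix metalloproteinases (MMPs) and some of the related ADAM proteases, which cut matrix and shed proteins from the cell surface. Urokinase turns plasminogen into the protease plasmin. Several of these genes belong to the secretory program of senescent cells, and senescence after KDM4C loss was a question of the study.

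The guides that define the comparison are given with the adjoining 3 bases of hg38, the motif that Cas9 requires, in capitals.
sg2: gcaagagtataatgcaacagTGG
sg3: ggtcatctgtgactgagtcgGGG
On chromosome 9, sg2 matched hg38 positions 7011804 to 7011823 of the plus strand in exon 13 of 22 of KDM4C, and sg3 matched positions 6984259 to 6984278 of the minus strand in exon 10. Both sites lie in coding sequence.

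RefSeq promoter sequence (GRCh38.p14) was found for 7 of the 9 genes. Stretches of 150 bases, from 180 to 31 bases before a listed start, are shown for a pair of genes that rose (PLAU, the second of its 2 starts, and TIMP1) and a pair that was not called in any comparison (IGFBP4 and IGFBP5). Capitals mark GGGCGG on either strand, the GC box that Sp1 family factors bind.
PLAU: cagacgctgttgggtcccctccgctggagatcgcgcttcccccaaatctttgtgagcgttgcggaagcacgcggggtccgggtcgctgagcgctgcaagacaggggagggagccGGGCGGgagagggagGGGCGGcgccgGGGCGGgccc
TIMP1: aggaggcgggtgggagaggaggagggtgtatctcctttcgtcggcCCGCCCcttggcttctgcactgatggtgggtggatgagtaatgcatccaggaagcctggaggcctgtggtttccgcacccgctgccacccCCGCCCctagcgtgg
IGFBP4: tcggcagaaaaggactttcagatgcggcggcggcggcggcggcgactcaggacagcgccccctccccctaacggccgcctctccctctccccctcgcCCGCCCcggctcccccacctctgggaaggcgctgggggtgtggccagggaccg
IGFBP5: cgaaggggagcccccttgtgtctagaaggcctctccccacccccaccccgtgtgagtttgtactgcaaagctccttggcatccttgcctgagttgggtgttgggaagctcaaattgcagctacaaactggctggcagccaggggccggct
These stretches are chr10:73910952-73911101 (plus), chrX:47582256-47582405 (plus), chr17:40443270-40443419 (plus) and chr2:216695580-216695729 (minus). The GC box stood in 7 of 10 promoters listed for these genes, against 34.5% of 35116 promoters of the same length. Those without it were IGFBP5, the third IGFBP2 start and the first PLAU start, and of these only IGFBP5 is shown. Letters of a STAT site (TTCNNNGAA, both strands) and of an AP-1 site (TGANTCA) were found in 0 of the 10, against 3.87% and 4.32% of all promoters. Letters of an NF-kB site (GGGA and CC with any 4 bases between them, both strands) stood in 2 of the 10, those of IGFBP5 and of the second IGFBP2 start, against 14.6%. These are matches of letters only, and IGFBP5, which holds no GC box in this stretch, had the highest level of all 9 genes.

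Total counts lay between 10031809 and 78966125 per library, and control library 2 was the deepest. Levels are given as CPM, counts per 1000000 counts of the library after TMM scaling. KDM4C itself lay between 67.8 and 71.4 CPM in control libraries, between 40.5 and 55.1 with sg2 and between 59.5 and 63.3 with sg3. It fell by 0.57 on the log2 scale with sg2 (adjusted p = 2.59e-05) and by 0.17 with sg3 (adjusted p = 0.0499), and transcripts with small edits would still be counted. The sg2 libraries 1 and 2 stood apart: on the first principal component (38.4% of the variance) they lay at -3.25 and -0.269, against 12.4 and 14.3 for the other sg2 libraries, 16.9 to 23.1 for sg3 and -27.6 to -22.8 for control. Results that rest on them are therefore given with and without them. They were picked from these same counts, as the knockout libraries nearest to control, so a larger difference without them is no separate check. Their KDM4C levels, 40.5 and 43.0 CPM, were the lowest of the 12 libraries, against 49.8 and 55.1 CPM in sg2 libraries 3 and 4. How this relates to their place on the component was not tested. All 12 erythroid and megakaryocytic markers of HEL cells were measured, with a summed level of 6630 to 7600 CPM over all libraries. The sum hides opposite moves. For the average of both guides 4 of the 12 were called higher and 4 lower, against 21.6% and 22.3% of all genes tested. Of 10 markers of fibroblasts or stroma, cells known for secreting these factors, 3 passed the filter on low counts. COL1A2 had 0 counts in every library, and DCN, LUM and FAP had at most 2. The summed level of the list was 71.7 to 74.8 CPM in control, 69.1 to 80.6 with sg2 and 73.8 to 76.6 with sg3, nearly all of it THY1, while PDGFRB measured 1.90 CPM in control, 3.06 with sg2 and 3.67 with sg3. The summed level of 5 epithelial markers was 35.8 to 39.5 CPM in control and 50.3 to 52.3 CPM in the knockout groups (KRT18 and KRT8, with EPCAM at 10 counts or fewer), and that of 6 endothelial markers 444 to 456 and 452 to 483 CPM (VWF at 3 counts or fewer). Most of the endothelial sum was ESAM, at 357.2 CPM in control. Of 5 endothelial markers tested, 3 were called higher and 1 lower for the average of both guides, against 21.6% and 22.3% of all genes tested. The part of all these markers in the results was not tested.

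The 9 genes spanned a wide range of levels. Per kilobase of exon, the mean over 12 libraries was 109.4 CPM for IGFBP5, 74.7 for TIMP3, 33.8 for TIMP1, 31.4 for IGFBP2, 6.91 for IGFBP4, 0.935 for IGFBP7 and 0.324 for PLAU. In control cells, 96.2% of 11803 tested protein-coding genes had a lower level per kilobase than IGFBP5, 93.5% than TIMP3, 83.4% than TIMP1 and 83.2% than IGFBP2. The corresponding share was 47.8% for IGFBP4, 13.3% for IGFBP7 and 4.49% for PLAU. Neighbours in that order differed beyond their spread over the 12 libraries except for TIMP1 (28.4 to 38.3 CPM per kilobase) and IGFBP2 (25.4 to 34.9), whose order turned round without division by length, and for IGFBP7 (0.507 to 1.25) and PLAU (0.158 to 0.557), although IGFBP7 was the higher of the pair in every library.

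**Figure D1:**
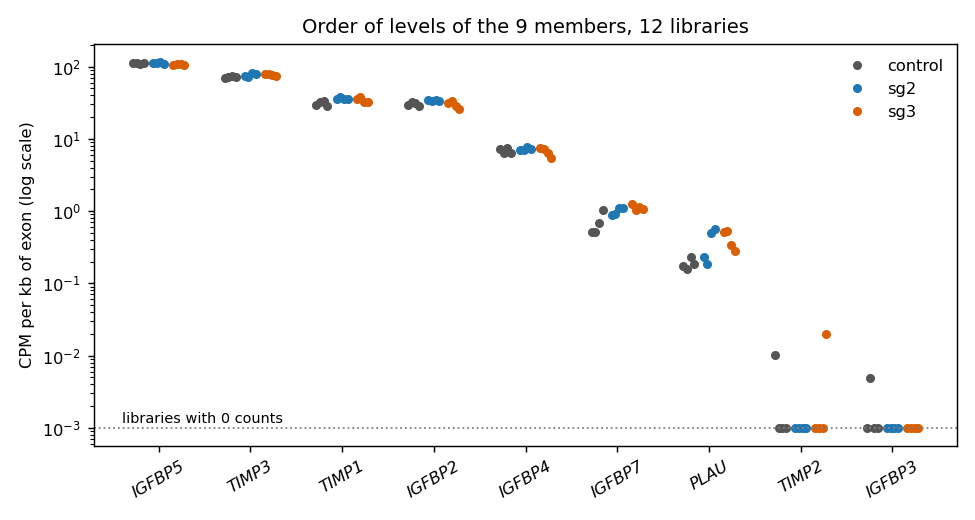
Level of each of the 9 genes in CPM per kilobase of exon (log axis), 1 point per library, coloured by group. IGFBP5 and TIMP3 lie highest, and TIMP2 and IGFBP3 lie at 0 in nearly every library, drawn on the dotted line.

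IGFBP3 and TIMP2 were too low to measure. IGFBP3, the main IGF carrier of serum, had 1 count in control library 2 and 0 in the other 11 libraries. TIMP2, which also takes part in the activation of MMP2, had 1 count each in control library 1 and sg3 library 4 and 0 in the others. A count of 3 would have corresponded to 0.038 CPM in the deepest library and 0.299 CPM in the shallowest, so levels below this were not detectable. Counting error only is covered by such limits. Both genes failed the filter on low counts and were not tested.

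IGFBP5 held 71.9% to 76.5% of the summed IGFBP level per kilobase in every library, and IGFBP2 held 18.7% to 22.8%. Among the TIMPs, TIMP3 held 65.9% to 71.3% and TIMP1 28.7% to 34.1%. The same member thus led each family in all 3 groups. IGFBP5 and IGFBP2 are neighbours on chromosome 2, at hg38 positions 216672105 to 216695549 (minus strand) and 216632828 to 216664436 (plus strand), with a gap of 7668 bases between them. The other genes lie apart. IGFBP3 spans chr7:45912245-45921272 (minus strand), IGFBP4 chr17:40443450-40457725 (plus) and TIMP1 chrX:47582408-47586789 (plus). TIMP2 spans chr17:78852977-78925387 (minus), TIMP3 chr22:32800816-32863041 (plus) and PLAU chr10:73909182-73917501 (plus).

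The first question was whether KDM4C inactivation, averaged over both guides, moved these transcripts. Of the 7 genes that passed the filter, PLAU, IGFBP7, TIMP1 and TIMP3 rose and 0 fell, against 21.6% of 13996 genes that rose and 22.3% that fell (43.9% called in all, edgeR's quasi-likelihood test, p adjusted over all genes by Benjamini-Hochberg). At an unadjusted p under 0.05 the counts were again 4 and 0, and DESeq2 and limma-voom called the same 4 genes. PLAU counts here although it passed the filter through knockout libraries, where it was higher, so its entry favoured a rise. The risers apart from PLAU were IGFBP7, TIMP1 and TIMP3. The median log2 fold change was 0.11 over the 7 genes and -0.005 over all genes tested. Regardless of sign, the median was 0.11 over the 7 genes and 0.156 over all genes tested, so the 7 did not change more than a typical gene. Without sg2 libraries 1 and 2 the same 4 were called. The 8 knockout libraries did not all lie beyond the controls for any of the 7 genes, against 23.3% of all genes tested.

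**Figure D2:**
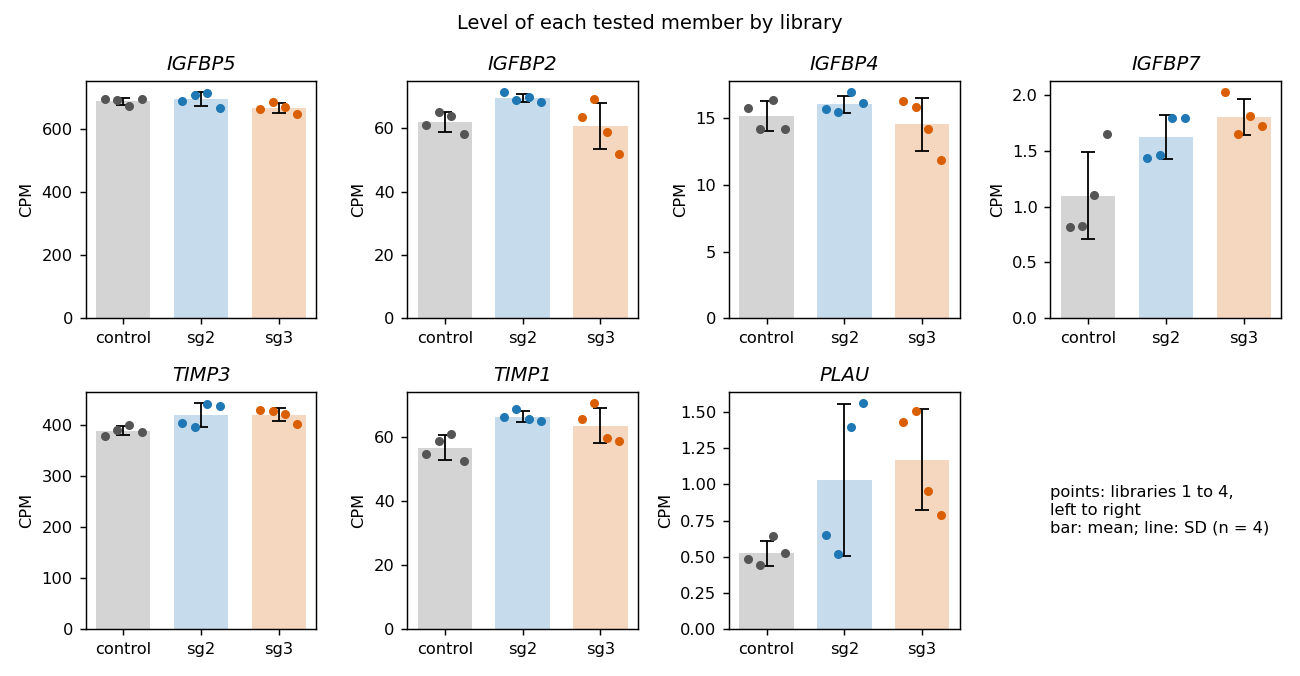
CPM of the 7 tested genes in each library (points), with the group mean (bar) and SD (line, n = 4). TIMP3 and PLAU lie near control in sg2 libraries 1 and 2 and higher in sg2 libraries 3 and 4, whereas IGFBP5 stays between 648 and 715 CPM in all libraries.

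IGFBP5, a binding protein that also attaches to matrix, did not move beyond the spread of its libraries. It measured 695, 690, 671 and 694 CPM in control libraries 1 to 4, 688, 707, 715 and 667 with sg2, and 662, 684, 670 and 648 with sg3. The groups overlapped throughout. The log2 fold change of the average was -0.02 ± 0.03 (SE; 95% interval -0.08 to 0.05, adjusted p = 0.690), the narrowest interval among the 7 genes. It was 0.01 with sg2 (interval -0.06 to 0.09) and -0.05 with sg3 (-0.12 to 0.03). The long noncoding gene DIRC3-AS1 overlaps the start of IGFBP5 on the opposite strand but shared 0 exon bases with it in the count table, and fell by 0.70 on the log2 scale (SE 0.21, adjusted p = 0.0133) from 2.00 CPM. DIRC3-AS1 was looked at for its position, after its values were seen.

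IGFBP2, a binding protein with a preference for IGF2, was not called with either guide. Control libraries 1 to 4 measured 60.9, 65.1, 63.9 and 58.1 CPM, sg2 libraries 71.3, 68.9, 69.9 and 68.2, and sg3 libraries 63.4, 69.2, 58.6 and 52.0. All 4 sg2 libraries lay above all controls, while the sg3 libraries lay on both sides of them. The log2 fold change was 0.07 ± 0.06 for the average (adjusted p = 0.366), 0.16 ± 0.07 with sg2 (adjusted p = 0.0767) and -0.03 ± 0.07 with sg3 (adjusted p = 0.742). The sg2 difference was called in 4 of 21 alternatives, for instance with sg2 and control alone (0.16, adjusted p = 0.0136), and sg3 changed sign without its library 4 (0.03).

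IGFBP4, a binding protein that restrains IGF action and is cut by the protease PAPPA, was not called either. It measured 15.8, 14.2, 16.4 and 14.2 CPM in control libraries, 15.7, 15.5, 16.9 and 16.1 with sg2, and 16.3, 15.8, 14.2 and 11.9 with sg3. The groups overlapped, and sg3 library 4 was the lowest of all 12. For the average, its log2 fold change was 0.02 ± 0.08 (95% interval -0.14 to 0.18, adjusted p = 0.877). Within sg3, library 4 had the lowest value for 6 of the 7 genes, IGFBP7 being the exception, and what sets it apart was not tested.

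IGFBP7 rose from a low level. It measured 0.819, 0.824, 1.11 and 1.65 CPM in control libraries 1 to 4, on 19 to 65 counts. With sg2 it measured 1.44, 1.47, 1.79 and 1.80 CPM, and with sg3 2.03, 1.66, 1.82 and 1.73 CPM. All sg3 libraries lay above the controls, narrowly in the case of control library 4, which overlapped sg2. Its log2 fold change was 0.76 ± 0.19 for the average (adjusted p = 0.00412), 0.67 ± 0.23 with sg2 (adjusted p = 0.0348) and 0.85 ± 0.22 with sg3 (adjusted p = 0.00446). The sg2 call was lost in 9 of 21 alternatives, among them that without sg2 libraries 1 and 2 (0.85, adjusted p = 0.0523), that without either control library 1 (0.59, 0.0928) or 2 (0.49, 0.172), and those without any 1 of sg2 libraries 2 to 4 (0.62 to 0.73, 0.0503 to 0.084).

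The 3′ end of IGFBP7 (chromosome 4, positions 57030773 to 57110385, minus strand) overlaps the last exon of POLR2B, a subunit of RNA polymerase II, on the opposite strand. They shared 264 of the 1615 exon bases of IGFBP7, and POLR2B had 2843 to 23154 counts per library. The stated counting options name no strand, so reads of the pair may not have been told apart, or may have gone uncounted for both. IGFBP7 also shared 94 exon bases with IGFBP7-AS1, which had at most 1 count in any library. If reads there went uncounted, the level of IGFBP7 per kilobase is too low. POLR2B measured 294.7 CPM in control and 295.7 in knockout libraries (log2 fold change 0.01, adjusted p = 0.923), and its part in the IGFBP7 result was not tested further.

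TIMP3, the inhibitor that stays bound to matrix and also blocks ADAM17, rose slightly. It measured 379, 390, 399 and 387 CPM in control libraries 1 to 4, 403, 396, 442 and 438 with sg2, and 430, 427, 421 and 402 with sg3. Of the 8 knockout libraries, 7 lay above all controls and sg2 library 2 lay among them. The log2 fold change was 0.11 ± 0.04 for the average (adjusted p = 0.0216), 0.11 ± 0.04 with sg2 (adjusted p = 0.0624) and 0.11 ± 0.04 with sg3 (adjusted p = 0.0400). Without sg2 libraries 1 and 2 the sg2 difference was 0.18 and was called (adjusted p = 0.00496). Those libraries were picked from these same counts for lying near control, so that call is no separate check.

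The call of TIMP3 for the average was lost with no filter (adjusted p = 0.0521) and without control library 1 (0.0656) or 2 (0.0524), with a log2 fold change between 0.10 and 0.11 in each. With sg3 it was lost in 8 of 21 alternatives, among them leaving out any 1 of control libraries 1, 2 and 4 or of sg3 libraries 1, 2 and 3 (adjusted p between 0.0641 and 0.0953), while the log2 fold change stayed between 0.10 and 0.11 in all 8. Reads of SYN3, in an intron of which TIMP3 lies on the opposite strand, numbered 9 to 75 per library, against 4435 to 30786 for TIMP3, and the genes shared 0 exon bases.

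TIMP1, a soluble inhibitor of most MMPs that also binds the surface protein CD63, rose. It measured 54.7, 58.6, 60.9 and 52.4 CPM in control libraries 1 to 4, 66.2, 68.7, 65.6 and 64.8 with sg2, and 65.4, 70.6, 59.5 and 58.7 with sg3. All 4 sg2 libraries lay above the controls, while sg3 libraries 3 and 4 overlapped them. TIMP1 had a log2 fold change of 0.20 ± 0.05 for the average (adjusted p = 0.00534), 0.23 ± 0.06 with sg2 (adjusted p = 0.00899) and 0.16 ± 0.06 with sg3 (adjusted p = 0.0321). The sg2 call was lost without sg2 libraries 1 and 2 (0.20, adjusted p = 0.0682). The sg3 call was lost in 5 of 21 alternatives: without control library 1 (0.15, adjusted p = 0.0838) or 4 (0.14, 0.0798), without sg3 library 1 (0.15, 0.0685) or 2 (0.11, 0.124), and with sg3 and control alone (0.17, 0.0539).

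The ratio of TIMP3 to TIMP1, per kilobase, was 2.31 ± 0.126 (SD, n = 4) in control, 2.13 ± 0.166 with sg2 and 2.23 ± 0.148 with sg3. The ranges of the 3 groups overlapped. That of IGFBP5 to IGFBP2 was 3.64 ± 0.223 in control (3.44 to 3.90), 3.27 ± 0.103 with sg2 (3.16 to 3.36) and 3.62 ± 0.372 with sg3 (3.24 to 4.08), so sg2 lay below control without overlap and sg3 overlapped both. Neither ratio was tested.

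PLAU had the largest log2 fold change of the 7 genes, at the lowest level. Most control libraries lay below the level that the filter on low counts asks for. PLAU thus passed through knockout libraries, where it was higher, and did not pass with sg2 and control alone. It measured 0.484, 0.444, 0.641 and 0.526 CPM in control libraries 1 to 4, on 13, 35, 11 and 7 counts. With sg2 it measured 0.647, 0.519, 1.40 and 1.56 CPM on 9, 17, 14 and 20 counts, and with sg3 1.43, 1.51, 0.957 and 0.792 CPM on 24, 30, 20 and 11 counts. All sg3 libraries lay above the controls, whereas sg2 library 2 lay among them and sg2 library 1 just above. PLAU had a log2 fold change of 1.06 ± 0.30 for the average (adjusted p = 0.00954), 0.87 ± 0.36 with sg2 (adjusted p = 0.0840) and 1.25 ± 0.34 with sg3 (adjusted p = 0.00682).

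Without sg2 libraries 1 and 2 the sg2 difference of PLAU was 1.58 and was called (adjusted p = 0.00371). It was also called without sg2 library 2 alone (1.24, adjusted p = 0.0166). Both libraries were picked from these same counts for lying near control, so these calls are no separate check. Without sg2 library 4 the difference was 0.57 (adjusted p = 0.298) and without library 3 it was 0.71 (adjusted p = 0.209), so its size rested on single libraries. The call for the average was lost without control library 2, the deepest (0.93, adjusted p = 0.0631). C10orf55 lies opposite to PLAU on chromosome 10 and shared 851 of the 2807 exon bases of PLAU. Reads there may have gone uncounted for both, which would lower the level of PLAU per kilobase. C10orf55 itself had at most 1 count in any library.

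**Figure D3:**
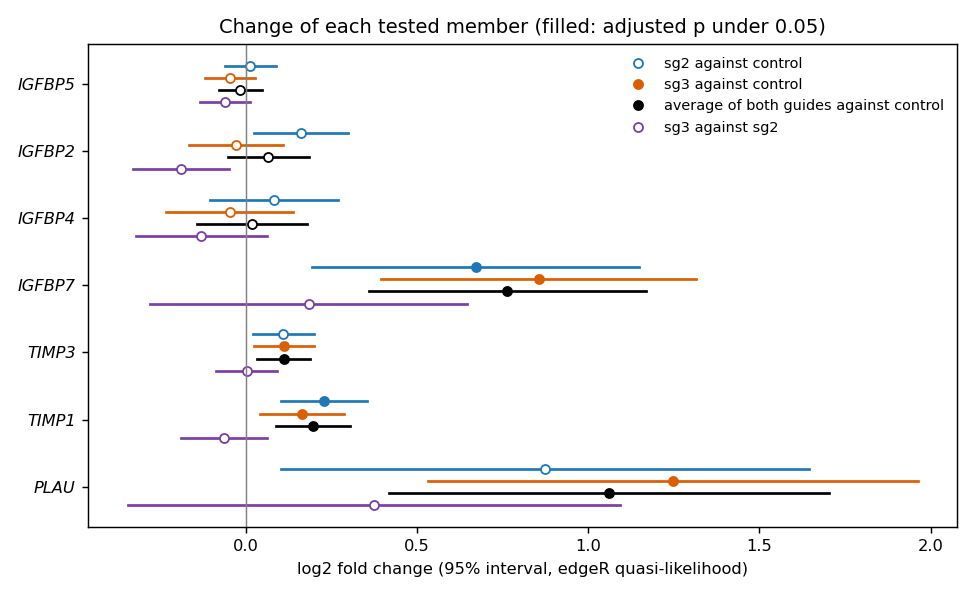
Log2 fold change (points) and 95% interval (lines) of the 7 tested genes in 4 comparisons, with filled points for an adjusted p under 0.05. The intervals of PLAU and IGFBP7 are the widest, and 0 points are filled for sg3 against sg2.

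With sg2 alone, IGFBP7 and TIMP1 rose and 0 genes fell, against 14.5% of all genes tested that rose (28.3% called in all). Of the other 5 tested genes, 3 had an unadjusted p under 0.05 (IGFBP2, TIMP3 and PLAU). DESeq2 called TIMP1 and TIMP3, and limma-voom the same pair as edgeR. Without sg2 libraries 1 and 2 the count was again 2, but the genes were TIMP3 and PLAU, with 0 shared. In that comparison 2 of the 7 genes, IGFBP2 and TIMP1, had 4 sg2 libraries above all controls, against 14.9% of all genes tested (29.2% in either direction).

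With sg3 alone, PLAU, IGFBP7, TIMP1 and TIMP3 rose and 0 genes fell, against 21.9% of all genes tested that rose (44.1% called in all), and the 0 stayed at an unadjusted p under 0.05. For 3 of the 7 genes, IGFBP7, TIMP3 and PLAU, all sg3 libraries lay above all controls, against 20.2% of all genes tested (39.7% in either direction). PLAU is in both sg3 counts although its entry through knockout libraries favoured a rise. Both guide comparisons share the 4 control libraries.

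The guides were then compared with each other. For sg3 against sg2, 0 of the 7 genes were called by edgeR, against 0.00714% of all genes tested. DESeq2 and limma-voom also called 0 of them, with 119 and 18 genes called in all and no adjusted p for PLAU in DESeq2, and 1 (IGFBP2) had an unadjusted p under 0.05 by each tool. IGFBP2 was lower with sg3 by a log2 fold change of -0.19 (95% interval -0.33 to -0.05, adjusted p = 0.222). The interval was -0.34 to 1.09 for PLAU, -0.28 to 0.65 for IGFBP7, -0.19 to 0.06 for TIMP1 and -0.09 to 0.09 for TIMP3. In 0 of the 7 genes did the libraries of both guides fail to overlap, against 5.95% of all genes tested (3.41% higher with sg3). For PLAU and IGFBP7 the interval is too wide to tell a like response from an unlike one.

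The genes whose log2 CPM followed each riser most closely over the 12 libraries were picked by Pearson's r among tested protein-coding genes. For TIMP3 they were HS1BP3 (r = 0.969, Spearman's rho = 0.958) and PLAU itself (r = 0.957, rho = 0.909). For PLAU they were OAZ2 (r = 0.967, rho = 0.895) and HS1BP3 (r = 0.964, rho = 0.958). IGFBP7 was followed by the complement gene C3 (r = 0.947, rho = 0.909) and FAM114A1 (r = 0.942, rho = 0.867), and TIMP1 by KCNE3 (r = 0.948, rho = 0.902) and CHMP2A (r = 0.947, rho = 0.951). These values describe 12 libraries that fall into groups and share their scaling, and the highest of so many values is high by selection. Within the 8 knockout libraries, r of TIMP3 and PLAU was 0.941.

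**Figure D4:**
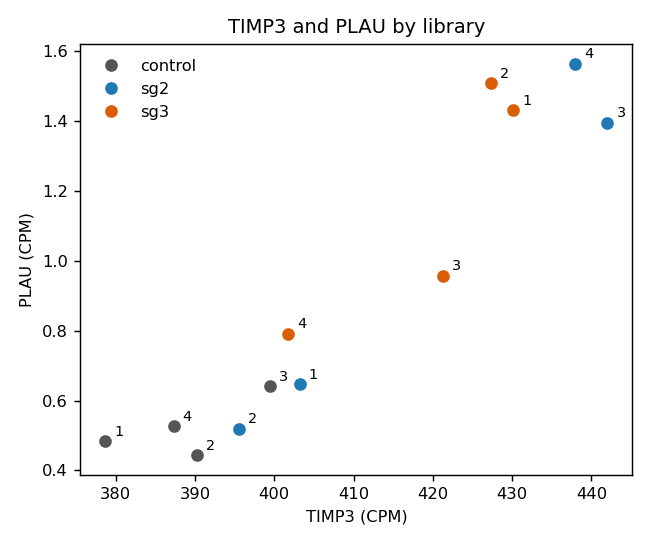
TIMP3 against PLAU in CPM, 1 point per library with its replicate number. Libraries 1 and 2 of sg2 lie close to the controls (library 1 just above all of them for both genes), at 396 to 403 CPM of TIMP3 and 0.519 to 0.647 CPM of PLAU, and libraries 3 and 4 of sg2 lie at the upper end.

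Genes of the IGF axis other than the 9 were set beside them. This list and those that follow were chosen with earlier results of these data known. Their shares beside those of all genes are therefore no independent support. The ligands IGF1 and IGF2 reached 1 and 2 counts at most, and INS had 0 throughout, whereas the receptor IGF1R measured 234.6 ± 13.6 CPM (SD, n = 4) in control. Of 27 genes listed, 10 passed the filter, 5 of them rose and 1 fell (median log2 fold change 0.24), against 21.6% and 22.3% of all genes tested. HTRA3, a secreted serine protease, rose by 0.80 ± 0.13 (adjusted p = 8.93e-05), its CPM being 2.20 ± 0.323 in control, 3.81 ± 0.511 with sg2 and 4.11 ± 0.392 with sg3. The receptor substrate IRS2 rose by 0.46 ± 0.06 and IGF1R by 0.13 ± 0.05 (adjusted p = 0.0404). PAPPA, the metalloproteinase that cuts IGFBP4 and IGFBP5, rose by 0.44 ± 0.04 (adjusted p = 1.71e-06), from 27.5 ± 0.699 CPM to 35.1 ± 1.07 with sg2 and 39.6 ± 2.41 with sg3. The binding protein IGFBP6 measured 0.40 (adjusted p = 0.0689) and the adaptor GRB10, which dampens receptor signalling, fell by 0.09 on the log2 scale (adjusted p = 0.0483). The GRB10 call was lost with upper-quartile scaling, with the replicate block and without control library 1 or 3, where 0 genes of the list fell. Without sg2 libraries 1 and 2, 6 rose and 2 fell. With sg2 alone 4 genes of the list rose and 0 fell, against 14.5% and 13.9% of all genes tested. With sg3 alone 6 rose and 1 fell, against 21.9% and 22.2%. IGFBP6 and GRB10 were named after their values were seen.

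**Figure D5:**
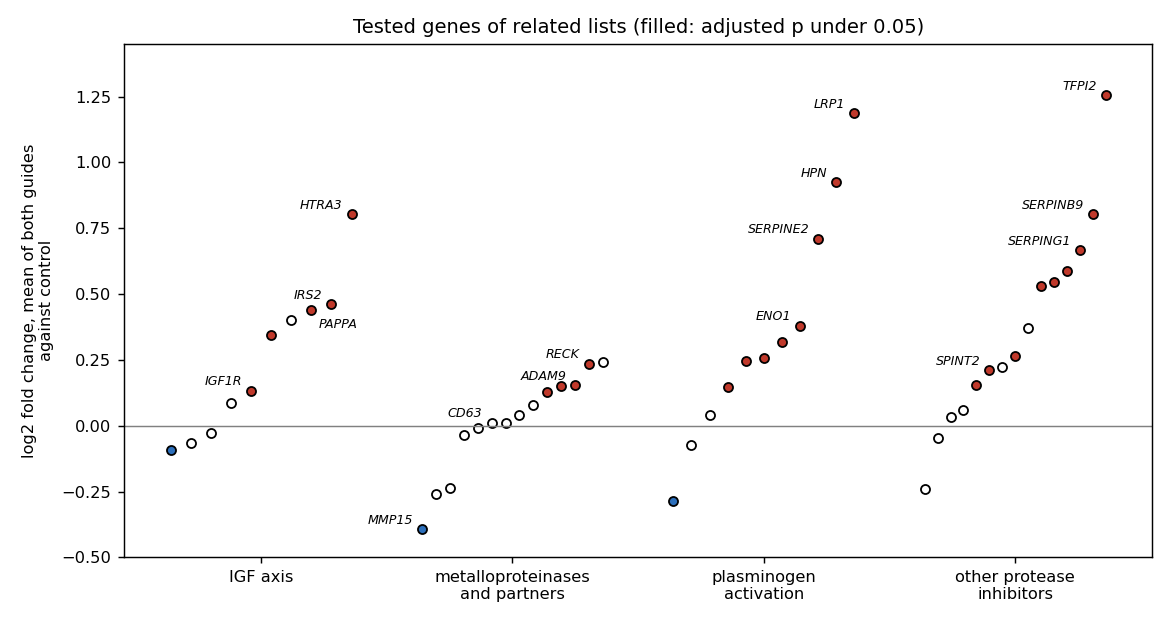
Log2 fold change of the average of both guides for each tested gene of 4 lists, in order of its value within a list, with filled points for an adjusted p under 0.05 and labels for the genes named by rule. The plasminogen list holds 8 filled points above 0 and 1 below, the metalloproteinase list 4 above and 1 below.

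Among targets and partners of the TIMPs, 14 of 36 genes passed the filter, 4 rose and 1 fell (median 0.03), shares near or below the 21.6% and 22.3% of all genes tested. Secreted MMP1, MMP3, MMP7, MMP8, MMP9 and MMP10 never exceeded 2 counts, and MMP2 measured 1.40 CPM in control. The membrane-bound MMP14 was the MMP with the highest level, at 110.8 CPM in control, and measured 0.04 (adjusted p = 0.312). RECK, a membrane inhibitor of MMPs, rose by 0.24 ± 0.07 (adjusted p = 0.0106) and ADAM9 by 0.15 ± 0.06 (adjusted p = 0.0476). ADAM10 and ADAM17, sheddases that TIMPs can block, rose by 0.13 and 0.15. ADAM10, ADAM17, MMP2 and MMP14 were named after their values were seen. The count that rose was 3 with DESeq2, with no filter on low counts, and without any 1 of the 4 control libraries, sg2 libraries 3 or 4, or sg3 libraries 1, 3 or 4. MMP15 fell by 0.39 on the log2 scale (SE 0.12, adjusted p = 0.0166), and that call was lost with DESeq2, without control library 2, and without sg2 libraries 1 and 2, where 5 rose and 0 fell. CD63, the binding partner of TIMP1, had the highest level per kilobase of the list and measured 0.01 (adjusted p = 0.913). With sg2 alone 2 genes of the list rose and 0 fell, against 14.5% and 13.9% of all genes tested. With sg3 alone 3 rose and 1 fell, against 21.9% and 22.2%.

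Of the genes around urokinase, 11 of 17 passed the filter. For the average of both guides 8 rose and 1 fell (median 0.26), against 21.6% and 22.3% of all genes tested. Leaving out control library 1 or control library 2 lowered the count that rose to 5, and leaving out control library 4 to 6. The receptor PLAUR rose by 0.26 (adjusted p = 0.0227) from 7.06 CPM in control. SERPINE2, an inhibitor of urokinase and thrombin, rose by 0.71 ± 0.10 (adjusted p = 2.81e-05), from 5.47 ± 0.869 CPM to 8.67 ± 1.16 with sg2 and 10.0 ± 0.556 with sg3. LRP1, which clears complexes of urokinase and inhibitor, rose by 1.19 ± 0.27 (adjusted p = 0.00222), and the serine protease HPN by 0.93 ± 0.33 (adjusted p = 0.0305), both from under 1 CPM. HPN, at 0.41 CPM in control, passed the filter on low counts only with the help of knockout libraries. Its place among the 8 that rose was favoured by that entry. ENO1, a glycolytic enzyme that can bind plasminogen, had the highest level and rose by 0.38 ± 0.05 (adjusted p = 1.99e-05). ANXA2, which binds plasminogen at the cell surface, fell by 0.29 on the log2 scale (adjusted p = 4.04e-05), while its partner S100A10 rose by 0.24 (adjusted p = 0.0274). PLAUR, ANXA2 and S100A10 were named after their values were seen. PLG, which encodes plasminogen, had 0 counts in every library, and without sg2 libraries 1 and 2, 7 rose and 1 fell. With sg2 alone 3 rose and 1 fell, against 14.5% and 13.9% of all genes tested. With sg3 alone 6 rose and 1 fell, against 21.9% and 22.2%.

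Of 30 other protease inhibitors, 15 passed the filter. For the average of both guides 9 rose and 0 fell by edgeR (median 0.27), against 21.6% and 22.3% of all genes tested, and as many without sg2 libraries 1 and 2. With sg2 alone 7 rose and 0 fell, against 14.5% and 13.9% of all genes tested. With sg3 alone 9 rose and 1 fell, against 21.9% and 22.2%. TFPI2, an inhibitor of serine proteases that includes plasmin among its targets, rose by 1.25 ± 0.32 (adjusted p = 0.00436) from 0.217 ± 0.0992 CPM. It measured 0.531 ± 0.273 CPM with sg2 and 0.696 ± 0.1275 with sg3, on at most 22 counts in any library. Its control level lay below what the filter on low counts asks for, so it passed only through knockout libraries. Its place among the 9 that rose was favoured by that entry. SERPINB9, the granzyme B inhibitor, rose by 0.80 ± 0.10 (adjusted p = 1.09e-05), from 5.40 ± 0.278 CPM to 8.96 ± 1.54 with sg2 and 9.97 ± 0.956 with sg3. SERPING1, the inhibitor of complement C1, rose by 0.67 ± 0.06 (adjusted p = 4.54e-07), from 37.3 ± 1.82 CPM to 54.96 ± 6.19 (sg2) and 64.8 ± 3.78 (sg3). SPINT2, a membrane inhibitor of serine proteases, had the highest level and rose by 0.21 ± 0.04 (adjusted p = 1.80e-04).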

How the data were processed

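RNA was sequenced from 12 libraries of HEL-Cas9 cells. Per the labels and methods, the authors used Trimmomatic 0.39 to trim paired-end reads of strand-specific libraries, STAR 2.7.4a to align them to hg38, and featureCounts (Subread 2.0.1) to count them by gene. What they deposited is a table of raw counts without normalization, beside each gene's length. The deposited length column (other unit: summed exon bases) was used for levels per kilobase. A total of 20 broken lines, of 6 genes, were left out. Positions overlapped GENCODE v44 for 99.9% of 26196 genes compared, so the builds match.

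The counts were fitted in edgeR 4.0.16 (R 4.3.3): filterByExpr (minimum count 10, minimum total 15; 13996 genes kept), TMM scaling, and a quasi-likelihood fit with 1 mean per group over all 12 libraries. A gene was called at an adjusted p (Benjamini-Hochberg) under 0.05. SE is the fold change divided by the root of F. CPM are counts over the TMM-scaled library size, and log2 CPM used a prior count of 2. Replicates of a group differed by more than sampling noise (reduced chi-square 1.71 to 12.4 over 18 pairs). DESeq2 1.42.0 and limma 3.58.1 were alternatives, as were other scalings, filters, sample sets and a replicate block. The code was tested on simulated data.

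The genes and lists were chosen with earlier results of these data known. By rule, the text names all 9 genes, up to 3 called genes with the largest change and the gene with the highest level per kilobase of each related list, and the 2 genes most correlated with each called one. Further genes are said to be named after their values were seen, or were near 0 counts, or serve as markers or neighbours. 1 gene of the plasminogen list is not reported here and is left out of its counts.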

Additional observations from a re-analysis of the deposited data

Results flagged for a closer look

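With 27 groups of 4 libraries examined for a library far from the others, 3 stood out. Each rests on a single count beside 0 in the rest of its group, which is always flagged. Groups at 0 throughout could not be flagged, and the chance rate of about 1 in 20 does not apply to such counts. IGFBP3 measured 0.0127 CPM in control library 2 and 0 in the other controls. TIMP2 measured 0.0372 CPM in control library 1 and 0.072 CPM in sg3 library 4, and 0 in the other libraries of each group. All 3 values lie below what 3 counts would give in the library concerned. None of the 7 tested genes stood out in this way in any group, and 0 of them were called for sg3 against sg2.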

How the results depend on the processing

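Of 580 recomputed fold changes of the 7 genes, 528 kept their direction and side of the threshold, 27 lost their call, 11 gained one and 14 changed sign, and the cause was not tested. The genes called numbered 4, 2, 4 and 0 (average, sg2, sg3, sg3 against sg2). Leaving out each library in turn gave 2 to 4, 1 to 3, 2 to 4 and 0. The lowest counts came without control library 2 (average), control libraries 1 or 2 or sg2 libraries 3 or 4 (sg2), and control libraries 1 or 4 or sg3 libraries 1 or 2 (sg3). With no filter on low counts the sg2 count was 1. The replicate block gave 4, 3, 3 and 0. The sources do not say whether numbers in the titles pair the samples. Deviations of same-numbered libraries correlated between -0.167 and 0.18, over 0.1 in 1 of 12 pairs, which does not decide it.

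The sign changes concern differences that were not called: IGFBP5 for the average with upper-quartile scaling (6e-04), and, for sg3 against sg2 without sg2 libraries 1 and 2, TIMP3 (-0.0667) and PLAU (-0.33). Leaving out each library gave -0.0234 to 0.0557 for IGFBP4 in the average, -2e-04 to 0.0353 for IGFBP5 with sg2, -0.094 to 0.0346 for IGFBP2 and -0.0996 to 0.0308 for IGFBP4 with sg3, and -0.0221 to 0.0277 for TIMP3 in sg3 against sg2. The count of all genes called for sg3 against sg2 was 1, and 367 with no filter, 119 with DESeq2, 18 with limma-voom, 25 with the replicate block, 201 without sg2 library 4, 2 without sg3 library 2, and 0 with these groups alone, without sg2 library 2, without sg3 libraries 1 or 3, and without sg2 libraries 1 and 2. PLAU did not pass the filter with sg2 and control alone. IGFBP3 and TIMP2 stayed at 1 count or fewer in every library, the deepest included, and PLAU and IGFBP7 rest on 7 to 35 and 18 to 65 counts.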
